A study of Homo sapiens with 3 samples.

Results

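The genes of respiratory complex I were compared between a glioblastoma clone whose IGF1 receptor (IGF1R) can reach the nucleus and a clone whose receptor cannot. The members were all genes on the arrays whose symbol starts with NDUFA, NDUFB, NDUFC, NDUFS, NDUFV or NDUFAF. This rule found 51 of 25006 named genes. Of these, 46 code for protein and 5 do not (NDUFA6-DT, NDUFAF4P1, NDUFB2-AS1, NDUFV1-DT and NDUFV2-AS1). The 46 coding genes are 36 subunits and 8 assembly factors of complex I, with NDUFA4 and its relative NDUFA4L2 kept apart. NDUFB1 was the only nuclear-coded subunit of the list with no matching probe, and no probe could be named for the 7 subunits that mitochondrial DNA encodes.

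Both clones come from U-87MG (U87), an established human glioblastoma line, and both were selected with G418 after stable transfection. U87WT 5 (U87WT) carries GFP-IGF1R, and U87Mut 5 (U87Mut) carries GFP-IGF1R1025x-1100x-1120x, in which 3 lysines were replaced by arginines. Each clone was kept for 24 h in FBS-free medium, with IGF1 (50 nM), or with IGF1 and OSI906, an inhibitor of the IGF1 and insulin receptors (0.5 µM in the sample title and methods, 500 µM in the label of the medium). OSI906 was started 1 h before IGF1. In the paper the receptor of U87WT moved to the nucleus after IGF1, and preincubation with OSI906 inhibited this. The paper gives no receptor localization for the cultures of the arrays. Mean ratios over all 3 arrays therefore compare the clones, and not a nuclear with a non-nuclear receptor on every array. Below, adding OSI906 names the comparison of both agents with IGF1 alone, not an order of treatment. RNA of U87WT (Cy5) and U87Mut (Cy3) was hybridized together on 1 two-colour array per condition, 3 arrays in all. Each receptor is thus represented by 1 clone, each condition by 1 culture of each clone, and no dye swap was made, so that clone and dye cannot be told apart. All ratios are log2 of U87WT over U87Mut, so a positive value is higher in U87WT.

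Complex I, the NADH:ubiquinone oxidoreductase, brings electrons from NADH into the mitochondrial respiratory chain and pumps protons across the inner membrane. Its matrix arm holds the flavin and the iron-sulfur clusters that pass the electrons on, and its membrane arm holds the proton channels. Around a catalytic core conserved from bacteria lie accessory subunits, and assembly factors help to build the enzyme but are not part of it once it is finished.

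All 46 coding members were expressed in both clones: the brightest probe of each was well above background in both channels on all 3 arrays. Their raw median signals ran from 60 to 36792 arbitrary units, against local backgrounds of 20 to 102. The members were bright genes, with a median brightness (mean log2 level over both channels) of 12.3, against 8.32 for the 15346 genes whose brightest probe was well above background, which serve as the comparison below. Over each array, 50.1 to 52.8% of the non-control spots were well above background. The markers of a glioma line VIM, CD44, CHI3L1 and NES were detected. Of the glial markers, OLIG2 was detected and GFAP, S100B and SOX2 were not well above background. The IGF1R probe gave ratios of 0.07, 0.23 and 0.09 in FBS-free medium, with IGF1 and with IGF1 and OSI906 (the order used throughout), and the sources used here do not say whether it also reads the transfected receptor.

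The clones differed little in complex I genes. The mean ratio over the 3 arrays lay between -0.47 and 0.45, with a median of 0.05, and 24 of the 46 members were above 0 and 22 below. A limma fit over 58201 probes called 6 members higher in U87WT (NDUFV3, NDUFAF3, NDUFS6, NDUFC1, NDUFV1 and NDUFA3) and 4 lower (NDUFAF4, NDUFAB1, NDUFAF2 and NDUFA12), at a Benjamini-Hochberg adjusted p under 0.05. These are 13.0% and 8.70% of the members. Over all probes 4.28% were called higher and 4.15% lower, but dim probes are rarely called, and among the 15346 detected genes the shares were 11.0% and 10.7%. The shares of the members were thus near those of the detected genes in both directions. The detected genes are dimmer, with a median brightness of 8.32 against 12.3. The share called among genes as bright as the members was not counted, here or below. The 3 arrays are 3 conditions, so any response to IGF1 or OSI906 adds to the error of this fit, and its p-values measure the spread between these arrays. Without the array of FBS-free medium, or without that of IGF1 and OSI906, limma called no member, where 5.68% and 1.24% of the detected genes were called. Of the members, 45.7% and 41.3% (21 and 19) then had an unadjusted p under 0.05, and of the detected genes 38.6% and 38.0%. Without the IGF1 array it called 11 members (23.9%), of which 8 were among the 10, and 26.1% of the detected genes. With all spots in the background fit it called 1 member higher and 2 lower. The share of detected genes called with that fit was not counted.

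**Figure D1:**
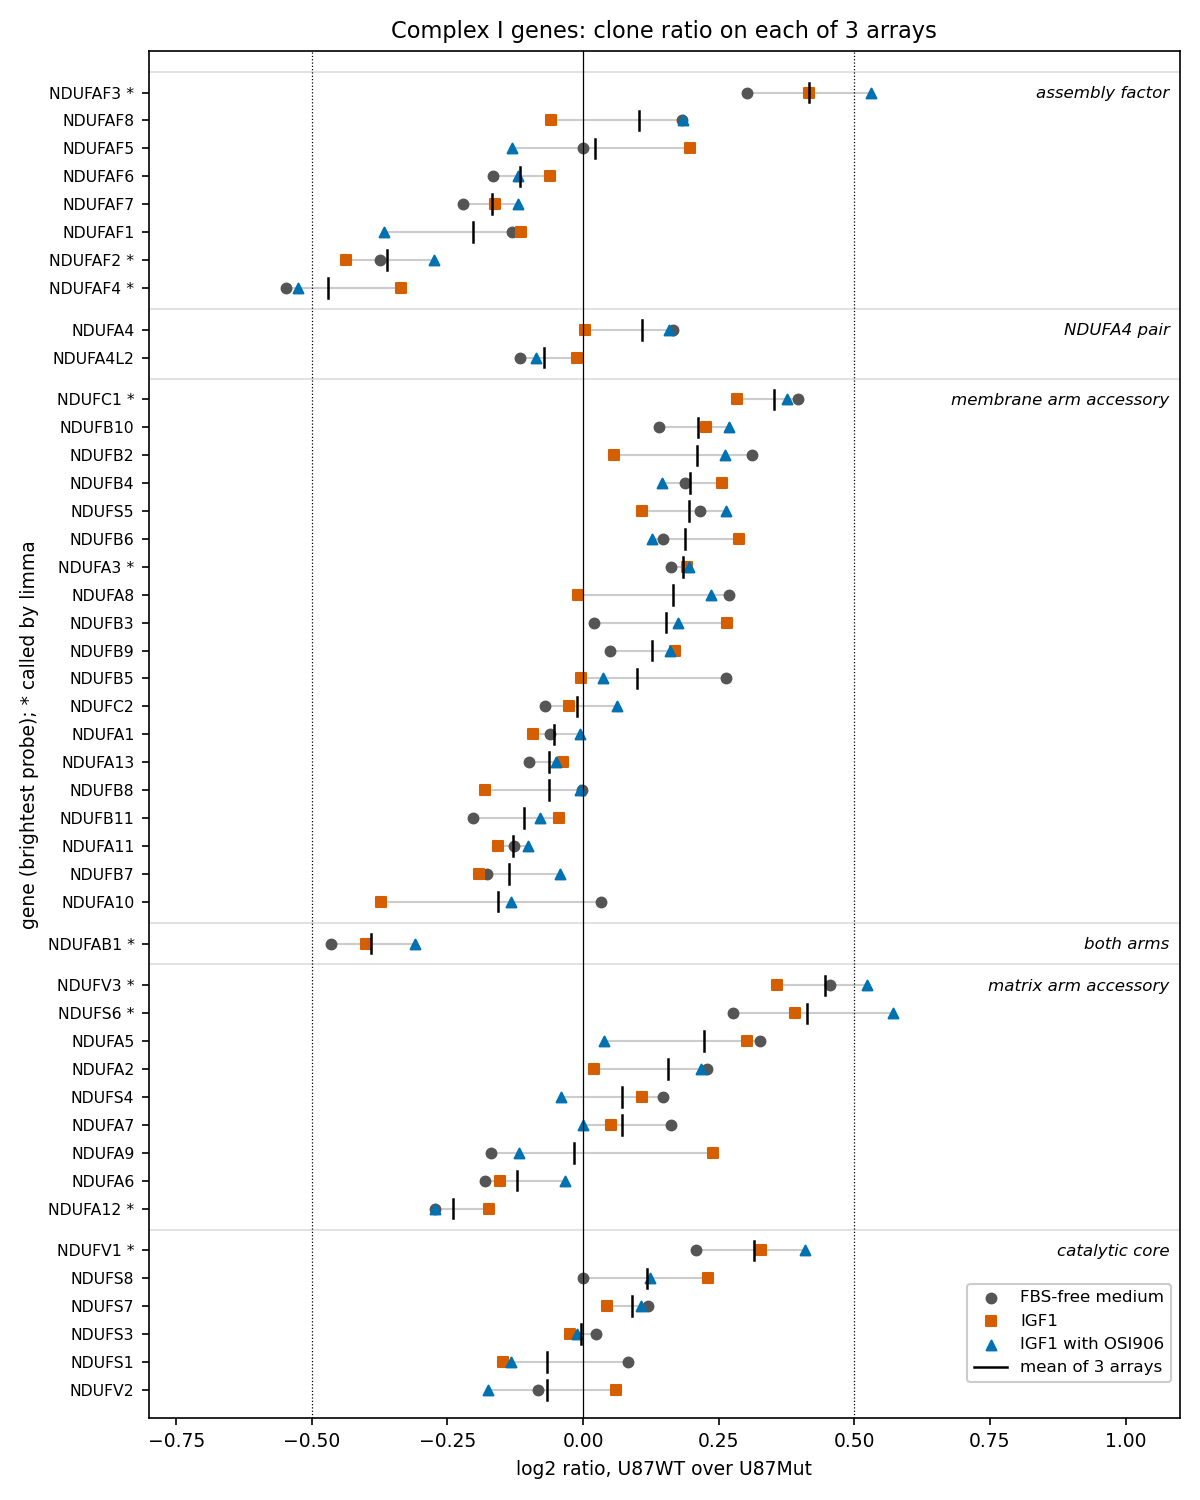
The log2 ratio of U87WT over U87Mut (x axis) of 45 of the 46 coding members of complex I (y axis), sorted within groups by role. Points are the 3 arrays, 1 per condition, short bars their mean, grey lines the range, dotted lines the size limit of 0.5 in either direction, and asterisks mark the 10 genes called by limma. Points lie on both sides of 0 in every group with more than 1 gene, and 4 genes pass 0.5 on any array.

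Of the 7 nuclear-coded subunits of the catalytic core, 1 was called. NDUFV1, which binds the flavin and takes the electrons from NADH, was higher in U87WT, with ratios of 0.21, 0.33 and 0.41 (mean 0.32 ± 0.050, SE, n = 3 arrays, limma adjusted p = 0.0316). Its normalized log2 level was 13.72, 13.66 and 13.84 in U87WT and 13.51, 13.33 and 13.43 in U87Mut, and the 2 clones did not overlap. Here and for the other called genes, the calls were made from these same values, so a lack of overlap adds no further support. Its direct partner at the entry of the electrons, NDUFV2, gave ratios of -0.08, 0.06 and -0.17. NDUFS1, the largest iron-sulfur subunit, gave 0.08, -0.15 and -0.13. NDUFS3 stayed close to 0 (0.02, -0.02 and -0.01). NDUFS7 and NDUFS8, which carry the last iron-sulfur clusters before ubiquinone, gave 0.12, 0.04 and 0.11, and 0.00, 0.23 and 0.12. None of these passed the test.

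Among the 9 accessory subunits of the matrix arm, 2 were higher and 1 was lower in U87WT. NDUFV3, a small subunit beside NDUFV1 and NDUFV2, had the highest mean ratio of all members. Its level was 11.54, 11.47 and 11.70 in U87WT and 11.08, 11.11 and 11.17 in U87Mut, ratios of 0.45, 0.36 and 0.52 (mean 0.45 ± 0.045, SE, n = 3 arrays, limma adjusted p = 0.0112). Every U87WT value lay above every U87Mut value. NDUFS6, a zinc-binding subunit added late in the assembly of this arm, reached 11.88, 12.10 and 12.20 in U87WT and 11.60, 11.71 and 11.63 in U87Mut. The ratios of 0.28, 0.39 and 0.57 were the most spread of the genes called higher (mean 0.41 ± 0.065, limma adjusted p = 0.0306). NDUFA12 was lower in U87WT, at 11.36, 11.51 and 11.42 against 11.63, 11.68 and 11.69 (mean ratio -0.24 ± 0.039, limma adjusted p = 0.0339). Its second probe gave a mean of -0.17 and was not called (limma adjusted p = 0.101). NDUFA5 was above 0 on every array but spread from 0.04 to 0.33, and NDUFA9, a subunit that binds NADPH, spread from -0.17 to 0.24.

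Of the 19 accessory subunits of the membrane arm, 2 were called, both higher in U87WT. NDUFC1 gave levels of 13.49, 13.25 and 13.43 in U87WT and 13.09, 12.96 and 13.05 in U87Mut (mean ratio 0.35 ± 0.040, SE, n = 3 arrays, limma adjusted p = 0.0139). NDUFA3 had the smallest difference of the called genes and the most even, with ratios of 0.16, 0.19 and 0.20 (mean 0.18 ± 0.033, limma adjusted p = 0.0440). Its levels, 13.04, 12.89 and 12.79 in U87WT and 12.88, 12.70 and 12.60 in U87Mut, overlapped across conditions though not on any array. RefSeq lists pseudogenes for 6 of the 10 called genes (6 for NDUFA3, 4 for NDUFAF4, 2 for NDUFAF2 and 1 each for NDUFAB1, NDUFA12 and NDUFS6), and no probe was checked against them here. The membrane arm ran from -0.16 (NDUFA10) to 0.35 in mean ratio, with a median of 0.13, and 9 of its 19 genes were above 0 on all arrays and 6 below. NDUFA10 has 3 probes, which did not give the same picture: the brightest spread from -0.37 to 0.03 and was not called, and another gave a mean of -0.34 with a call (limma adjusted p = 0.0134).

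NDUFAB1, the mitochondrial acyl carrier protein, sits in both arms and also serves the mitochondrial synthesis of fatty acids. It was lower in U87WT, at 12.09, 12.17 and 12.30 against 12.56, 12.57 and 12.61 in U87Mut (mean ratio -0.39 ± 0.044, SE, n = 3 arrays, limma adjusted p = 0.0139). The highest U87WT value lay below the lowest U87Mut value. NDUFA4, now grouped with cytochrome c oxidase under the symbol COXFA4, gave ratios of 0.17, 0.00 and 0.16, and its relative NDUFA4L2, known as a target of hypoxia signaling, gave -0.12, -0.01 and -0.09. Neither was called.

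**Figure D2:**
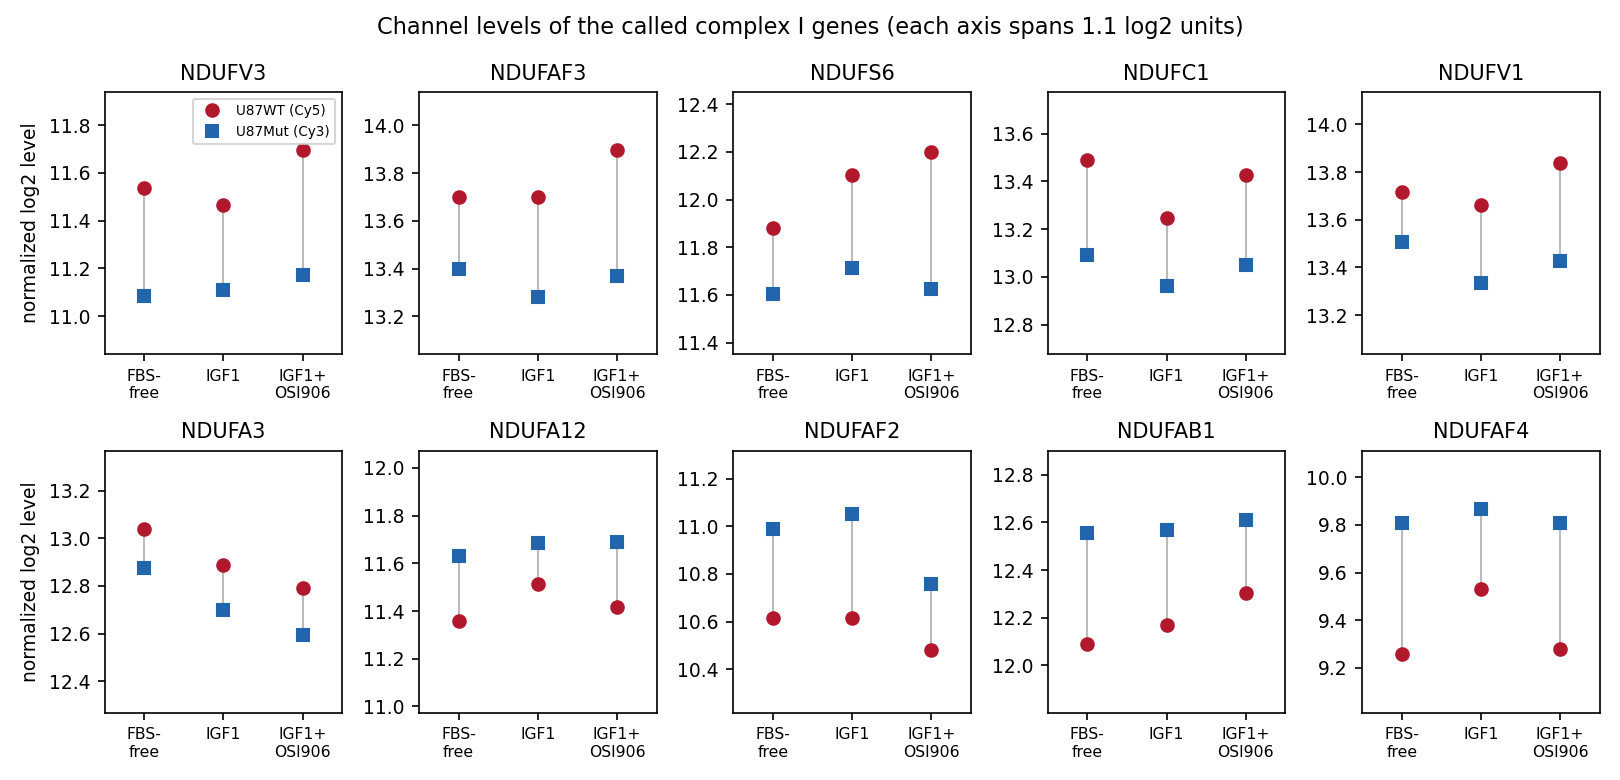
Normalized log2 level (y axis) of the 10 called genes in FBS-free medium, with IGF1 and with IGF1 and OSI906 (x axis). Red circles are U87WT (Cy5), blue squares U87Mut (Cy3), each a single channel of 1 array, and every panel spans the same 1.1 log2 units. In the first 6 panels U87WT lies above U87Mut on each array and in the last 4 below.

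The assembly factors had the widest range of mean ratios of the groups, in both directions. Of the 8 NDUFAF genes, NDUFAF3 was called higher in U87WT and NDUFAF2 and NDUFAF4 lower. NDUFAF3 and NDUFAF4, whose proteins bind each other and act early in assembly, differed between the clones in opposite directions. NDUFAF3 gave 13.70, 13.70 and 13.90 in U87WT and 13.40, 13.28 and 13.37 in U87Mut (mean ratio 0.42 ± 0.054, SE, n = 3 arrays, limma adjusted p = 0.0192). NDUFAF4 gave 9.26, 9.53 and 9.28 in U87WT and 9.81, 9.87 and 9.81 in U87Mut, the lowest mean ratio of all members (-0.47 ± 0.055, limma adjusted p = 0.0151). Both genes were free of overlap between the clones.

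NDUFAF2 is a paralog of the subunit NDUFA12 and holds its place during assembly. Both genes were lower in U87WT. The brightest probe of NDUFAF2 gave 10.61, 10.61 and 10.48 in U87WT and 10.99, 11.05 and 10.76 in U87Mut (mean ratio -0.36 ± 0.045, SE, n = 3 arrays, limma adjusted p = 0.0175). A second probe of almost the same brightness was called too, with ratios of -0.88, -0.44 and -0.65 (mean -0.66, limma adjusted p = 0.0210).

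The other 5 assembly factors were not called. NDUFAF1 (-0.13, -0.11 and -0.37), NDUFAF6 (-0.17, -0.06 and -0.12) and NDUFAF7 (-0.22, -0.16 and -0.12) were below 0 on each array. NDUFAF5 (0.00, 0.20 and -0.13) and NDUFAF8 (0.18, -0.06 and 0.18) lay on both sides. In all, 5 of the 8 NDUFAF genes were lower in U87WT on all 3 arrays and 1 was higher, while over the 46 members the numbers were 16 and 18. Among detected genes, 28.7% were lower on all arrays and 28.6% higher. Of the 10 further assembly factors without an NDUFAF symbol, 9 had a probe and 2 were called, both higher in U87WT. These were ACAD9 (mean ratio 0.23, limma adjusted p = 0.0446) and NUBPL, which delivers iron-sulfur clusters (0.28, limma adjusted p = 0.0303). Of the detected genes, 11.0% were called higher and 10.7% lower.

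Promoters of complex I genes were searched for 4 motifs on both strands, in RefSeq windows (GRCh38.p14) of 250 bases before to 50 after the start, which were at hand for 40 of the coding members (53 windows). ATGGCGG, a core of YY1 sites, was in 35.8% of member windows and 5.55% of all 35116 windows in the table. The NRF1 motif was in 13.2% and 5.78%. CCGGAAG, an ETS motif, was in 15.1% and 10.3%, and ACGTG, the HIF core, in 20.8% and 21.4%. Some genes have several windows, which can overlap, no test was made, and a match in these letters does not show a bound factor. By gene, ATGGCGG was found for 17 of the 40 members. Of the 6 genes called higher, it was found for NDUFS6 and NDUFV3, and it was found for none of the 4 called lower. The NRF1 motif was found for 1 gene called higher and 1 called lower, ACGTG likewise for 1 and 1, and CCGGAAG for 0 and 1.

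The promoters of 2 genes called higher and of 2 called lower are shown, the genes with the largest mean ratios in each direction that have 1 window in the table, with matches to any of the 4 motifs in capitals. In NDUFV3 (chr21:42893059-42893358, plus strand) ACGTG and, on the opposite strand, ATGGCGG are marked. In NDUFS6 (chr5:1801157-1801456, plus strand) it is ATGGCGG and in NDUFAF4 (chr6:96897842-96898141, minus strand) CCGGAAG. NDUFAB1 (chr16:23596267-23596566, minus strand) has no match in this window.
NDUFV3: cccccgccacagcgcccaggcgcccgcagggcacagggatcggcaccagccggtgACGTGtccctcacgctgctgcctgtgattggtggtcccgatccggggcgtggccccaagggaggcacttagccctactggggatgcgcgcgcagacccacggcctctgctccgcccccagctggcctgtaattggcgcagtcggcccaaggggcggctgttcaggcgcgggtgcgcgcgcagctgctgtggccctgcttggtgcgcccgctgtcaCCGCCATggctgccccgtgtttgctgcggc
NDUFS6: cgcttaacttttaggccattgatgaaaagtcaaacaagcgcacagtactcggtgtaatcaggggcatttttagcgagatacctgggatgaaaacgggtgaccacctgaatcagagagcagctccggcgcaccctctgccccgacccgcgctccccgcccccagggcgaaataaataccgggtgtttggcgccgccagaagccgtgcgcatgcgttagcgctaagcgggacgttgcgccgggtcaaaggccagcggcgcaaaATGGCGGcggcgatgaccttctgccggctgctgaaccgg
NDUFAF4: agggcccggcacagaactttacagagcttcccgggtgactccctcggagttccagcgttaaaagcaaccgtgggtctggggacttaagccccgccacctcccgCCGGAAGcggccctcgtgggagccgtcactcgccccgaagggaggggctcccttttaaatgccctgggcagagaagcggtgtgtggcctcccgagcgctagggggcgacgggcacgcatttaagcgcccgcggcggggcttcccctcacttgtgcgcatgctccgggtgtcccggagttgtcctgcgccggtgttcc
NDUFAB1: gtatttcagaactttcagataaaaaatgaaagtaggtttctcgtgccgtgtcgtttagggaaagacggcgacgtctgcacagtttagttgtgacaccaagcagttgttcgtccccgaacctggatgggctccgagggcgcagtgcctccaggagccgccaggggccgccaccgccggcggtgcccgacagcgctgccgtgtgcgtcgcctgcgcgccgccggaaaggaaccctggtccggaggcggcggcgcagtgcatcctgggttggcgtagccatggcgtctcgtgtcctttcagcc

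Single arrays were read against a size limit of 0.5 on the log2 ratio, with no test, since each condition had 1 array. In FBS-free medium no member was above the limit and 1, NDUFAF4 at -0.55, was below -0.5. With IGF1 no member passed in either direction. With IGF1 and OSI906, 3 were above (NDUFS6 at 0.57, NDUFAF3 at 0.53 and NDUFV3 at 0.52) and NDUFAF4 was below at -0.53. Of the detected genes, 6.37% were above 0.5 in FBS-free medium, 7.33% with IGF1 and 5.75% with IGF1 and OSI906, and 6.12%, 4.71% and 5.66% were below -0.5. The median ratio of the members was 0.03, -0.00 and -0.00, and that of the detected genes -0.01, 0.02 and -0.01. The SD over members was 0.213 to 0.238 against 0.338 to 0.358 over detected genes, while the interquartile ranges were nearly equal (0.301 to 0.328 against 0.330 to 0.345).

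Repeated spots gave the technical error of a ratio. NDUFS6 had 10 spots on each array, with an SD of 0.030, 0.047 and 0.038. The means of 0.28, 0.39 and 0.57 thus stood further apart than the SD of the spots on any array. Spots share the RNA, however, and do not measure the spread between cultures. NDUFS5 had 9, 9 and 10 usable spots with means of 0.22, 0.11 and 0.26. The spread of a ratio between arrays was estimated over the 27680 probes well above background from the difference of each pair of arrays. Its SD was 0.144 for the array of FBS-free medium against that with both agents, and 0.180 and 0.182 for the pairs that include the IGF1 array. The arrays of a pair differ in condition, so these values include any response to the treatments. Spread between cultures of the same condition could not be estimated.

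With the normalization used here, the response of the members to IGF1 was small in both clones. It was read within each clone as the difference of its normalized log2 levels between arrays, 1 channel each, and no response has a replicate. No member passed 0.5 in size by its brightest probe in U87WT or in U87Mut, where 4.83% and 2.54% of the detected genes did. The median response was -0.05 in U87WT, with 20 members above 0 and 26 below, and -0.06 in U87Mut, with 21 above and 25 below. With median scaling in place of loess the medians were 0.34 and -0.41, and without normalization between arrays -0.28 in both, where detected genes of brightness 12 to 14 had 0.38 and -0.44, and -0.25 and -0.29. The largest positive values in U87WT were those of NDUFAF4 (0.27), NDUFAF5 (0.26) and NDUFA9 (0.23). The largest negative values were those of NDUFA10, NDUFA8 and NDUFA4 (-0.33 each). In U87Mut NDUFS1 (0.18), NDUFS7 (0.14) and NDUFA11 (0.12) stood highest and NDUFV2 (-0.29), NDUFA6 (-0.22) and NDUFB3 (-0.20) lowest.

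Between IGF1 alone and both agents, no member moved past 0.5 either. Among detected genes, the shares past 0.5 were 7.41% in U87WT and 3.05% in U87Mut. Median responses were 0.02 and 0.01. NDUFS1 was the lowest in both clones, at -0.36 in U87WT and -0.37 in U87Mut. Its level went from 11.90 to 11.55 in U87WT and from 12.05 to 11.68 in U87Mut, so that the clone ratio hardly moved. At the other end stood NDUFA10 in U87WT (0.26) and NDUFV2 in U87Mut (0.31). Between FBS-free medium and both agents, again no member passed 0.5, against 4.71% and 1.45% of the detected genes, and the median was -0.03 in each clone. The largest response of a coding member in any of these comparisons was 0.41 in size, that of NDUFS1 in U87WT between FBS-free medium and both agents.

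**Figure D3:**
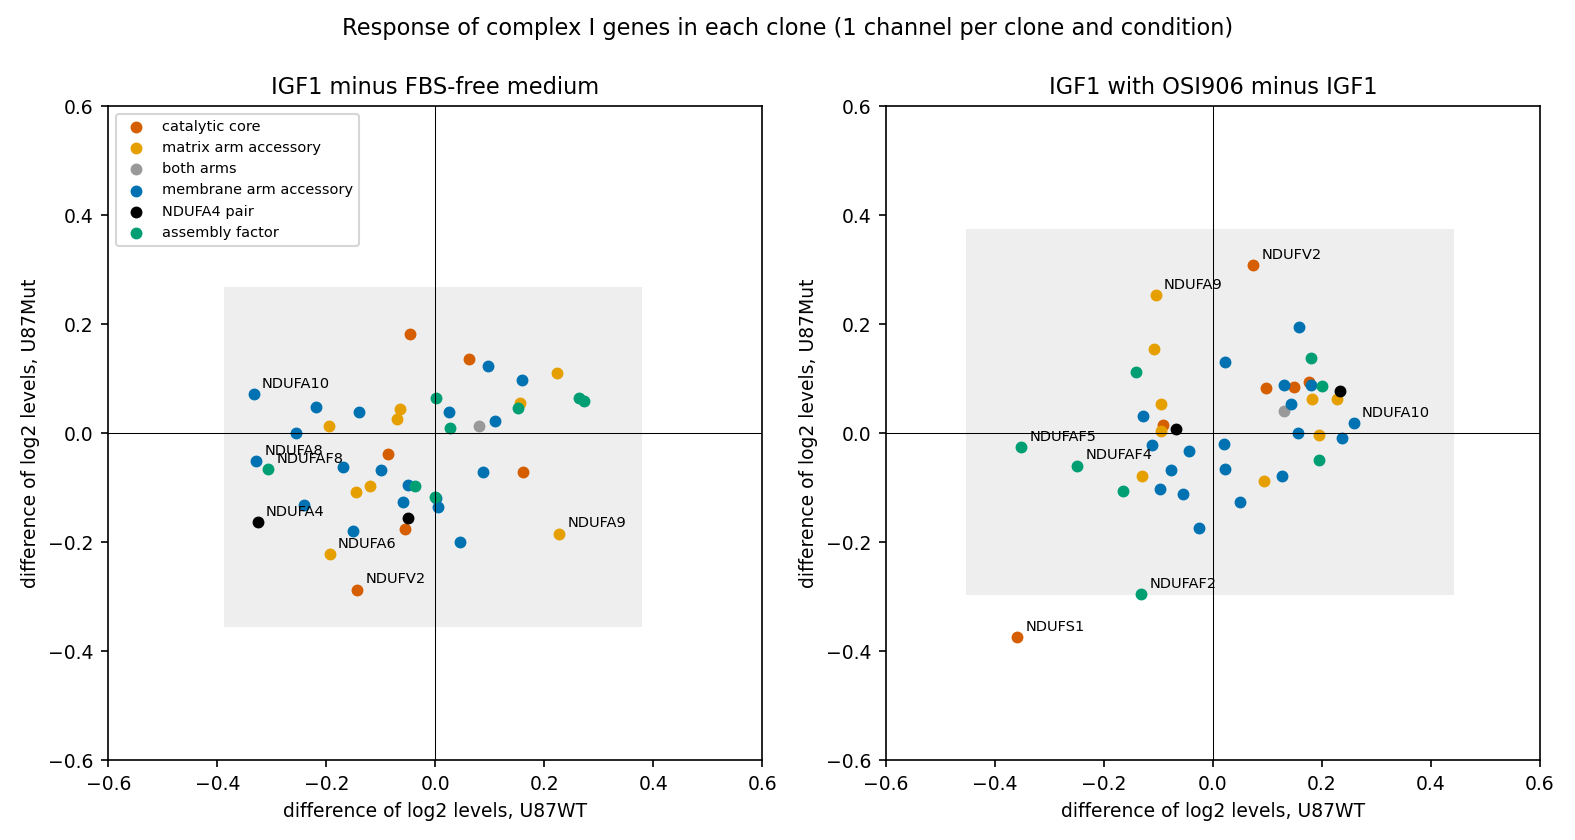
Difference of normalized log2 levels in U87WT (x axis) and U87Mut (y axis) for 45 of the 46 coding members, coloured by role, between IGF1 and FBS-free medium (left) and between IGF1 with OSI906 and IGF1 alone (right). The grey area spans the 5th to 95th percentile of detected genes in each clone. All points lie within 0.5 of 0 on both axes, and NDUFS1 is the lowest point in both clones on the right.

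The second probe of NDUFAF2 was the exception among the further probes. Its level in U87WT was 10.07 in FBS-free medium, 10.76 with IGF1 and 10.10 with IGF1 and OSI906, a difference of 0.69 with IGF1 and of -0.67 on adding OSI906. In U87Mut it was 10.95, 11.20 and 10.75, differences of 0.25 and -0.46. The brightest probe of the gene gave a response to IGF1 of 0.00 in U87WT and 0.06 in U87Mut. Of the 12 further probes of coding members, 2 passed 0.5 in a response, the other being a probe of NDUFAF8 in U87WT (0.54 on adding OSI906).

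The ratio with IGF1 was also set against the mean of the ratios on the other arrays. No member differed by more than 0.5, against 4.63% of the detected genes. NDUFA9 stood highest (0.38), followed by NDUFAF5 (0.26) and NDUFAF4 (0.20), and NDUFA10 (-0.32), NDUFA8 (-0.26) and NDUFAF8 (-0.24) stood lowest. NDUFA9 went from 9.13 to 9.35 in U87WT and from 9.30 to 9.11 in U87Mut with IGF1, and stood at 9.25 and 9.37 with OSI906 added. Its ratio with IGF1, 0.24 here, was -0.15 with all spots in the background fit and -0.22 in the authors' deposited table.

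How many members passed the limit with IGF1 depended on the background correction. On the IGF1 array the scanner software marked 572 spots as not uniform, and with these spots in the background fit the estimated SD of the red background was 700.9 units, against 1.322 without them. Without the marked spots, as used above, no member passed 0.5. With all spots, 5 members (10.9%) were above 0.5 and 3 below -0.5, against 2.72% and 7.12% of the detected genes. In the ratios the authors deposited, which a background fit on all spots with an offset of 20 matched within 0.01 for all 58201 probes, 9 were above (NDUFA4, NDUFA8, NDUFAF3, NDUFB2, NDUFB4, NDUFB9, NDUFS5, NDUFS8 and NDUFV1) and 4 below, where 9.92% of the detected genes were below. NDUFS5 is an example: its ratio was 0.11 without the marked spots, 0.54 with all spots and 0.66 in the deposited table, against 0.22 and 0.26 on the other arrays.

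Under these fits the ratio followed the brightness of the probe. In the deposited table the median ratio with IGF1 over detected genes was -0.27 at a brightness of 8 to 10, -0.28 at 10 to 12, 0.10 at 12 to 14 and 0.74 above 14. Of the 337 genes above 14, 73% were past 0.5 there, as were all 6 members of that brightness. At 10 to 12, 24.7% of the genes were below -0.5, as were 2 of 14 members. Without the marked spots the medians were 0.04, 0.02, 0.00 and 0.17. The members had medians of -0.45, -0.23, 0.16 and 0.61 in the deposited table. The share of members above 0.5, 19.6%, was larger than the 3.07% of all detected genes there, and the members are brighter than most of these.

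**Figure D4:**
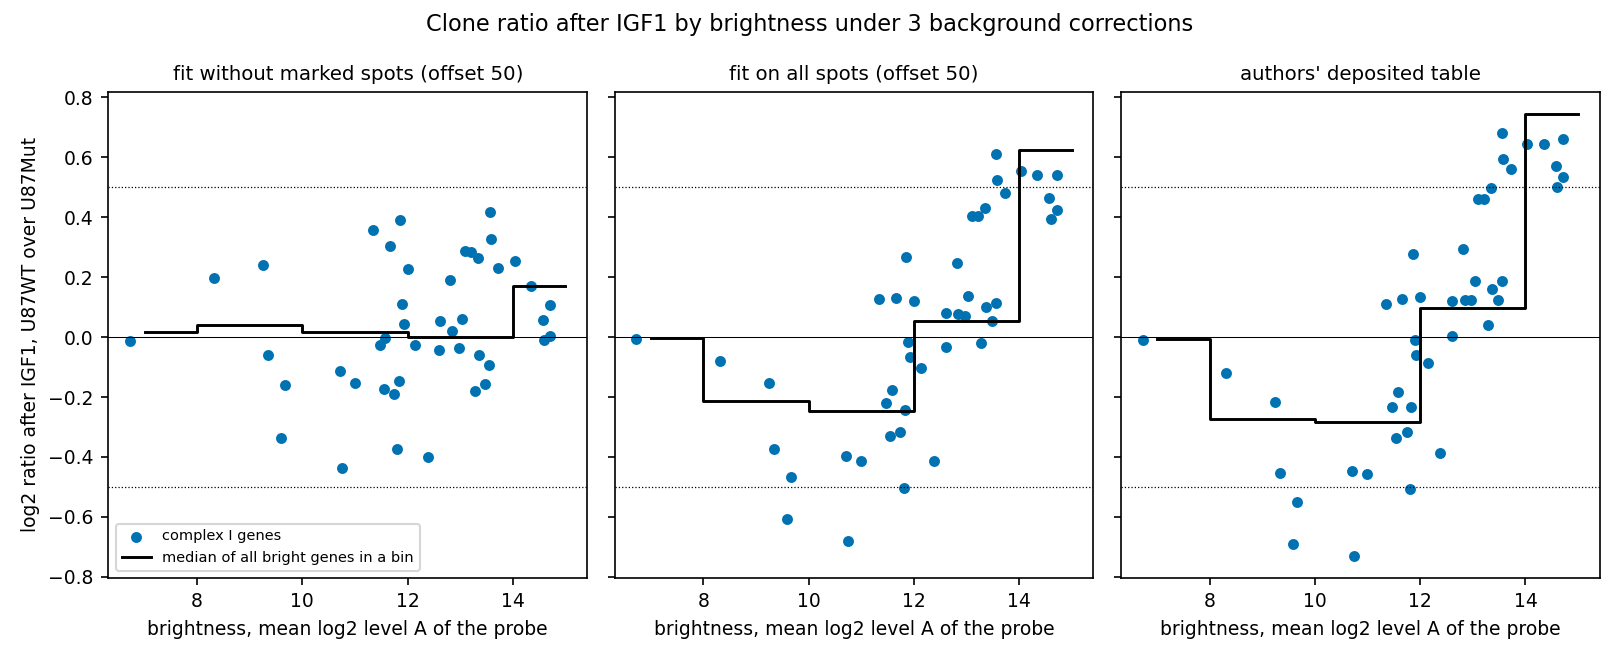
Clone log2 ratio with IGF1 (y axis) against probe brightness (x axis, mean log2 level) for 45 of the 46 coding members (points) with the background fitted without the marked spots (left), with all spots (middle) and in the authors' deposited table (right). The stepped line is the median of detected genes in brightness bins 2 log2 units wide, the outer bins being open, and dotted lines mark 0.5 in either direction. At left all points lie between the dotted lines, and in the other panels the line lies below 0 from 8 to 12 and climbs above 0 from there, with the brightest points beside it.

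Among other genes of oxidative phosphorylation, 37 of 38 listed subunits of complexes II to V had a probe, and 8 were called, all higher in U87WT. They were SDHA of complex II, UQCRC2, UQCRQ and UQCR10 of complex III, COX5B and COX6A1 of complex IV, and ATP5F1E and ATP5PO of ATP synthase. Among the detected genes 11.0% were called higher and 10.7% lower. The calls of these other genes were not repeated under the alternatives of processing used for complex I. ATP5F1E had ratios of 0.91, 0.73 and 0.84 (mean 0.82, limma adjusted p = 0.00437), beyond any complex I member. The median mean ratio of this list was 0.05, the same as that of the complex I members. Of 7 regulators of mitochondrial biogenesis, GABPA, an ETS factor of respiratory genes, was higher in U87WT (0.51, 0.65 and 0.26, limma adjusted p = 0.0377). TFAM, which packs and transcribes mitochondrial DNA, gave -0.96, -0.57 and -0.20 and was not called (limma adjusted p = 0.104).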

How the data were processed

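A total of 3 two-colour Agilent SurePrint G3 Human GE v3 arrays, on 1 slide and from 1 scan, held RNA of U87WT 5 (Cy5) and U87Mut 5 (Cy3). The authors deposited spot intensity in arbitrary units from Feature Extraction 12.0.3.1 (probes designed on hg19), with flags per spot, and a table of log2 ratios that they background-corrected and normalized with limma. Its medians were -0.0066, -0.0074 and -0.0030.

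Median spot signals and local backgrounds were corrected in limma 3.58.1 (R 4.3.3) by normexp with an offset of 50, fitted without spots marked not uniform. Loess within arrays and Aquantile between arrays followed. Outlier spots were left out, repeated spots averaged, and the brightest probe taken per gene. Normalization of this kind centres each array and would hide a shift shared by all genes. RefSeq accessions named 34892 of 36770 probes. The mean of the 3 ratios was tested by lmFit and eBayes with Benjamini-Hochberg adjustment over 58201 probes, after a check on simulated data. Named in the text were core subunits, NDUFA4 and NDUFA4L2, NDUFAF genes, called genes, those past 0.5 and those at both ends of each comparison. NDUFA5, NDUFS5 and the probes of NDUFA10 and NDUFAF2 were singled out after their values were seen. Members, lists and motifs were chosen with earlier results of these data known. The number of arrays limits the precision. Alternatives tried were other background corrections, normalizations, probe and size rules, and the fit without each array. The values of 1 member are not reported here, and it is left out of the plots.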

Additional observations from a re-analysis of the deposited data

Results flagged for a closer look

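NDUFA9, a matrix arm subunit that binds NADPH, moved in opposite directions in the 2 clones with IGF1. Its level changed by 0.23 on the log2 scale in U87WT and by -0.18 in U87Mut, a difference of 0.41 between the clones. Both values lay within 1 SD of the same response over detected genes (0.259 in U87WT and 0.206 in U87Mut). Opposite signs were common among the members (15 of 46), and 5.81% of the detected genes likewise moved in opposite directions by more than 0.144 in each clone. The difference was not tested, since each value comes from 1 channel of 1 array. It also depended on the background fit. The ratio of NDUFA9 with IGF1 was 0.24 without the marked spots, against -0.17 and -0.12 on the other arrays. With all spots in the fit that ratio was -0.15, and in the deposited table -0.22.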

How the results depend on the processing

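The 10 called genes kept the direction of their mean ratio in each of 11 alternatives of processing, and the calls held less well. NDUFAF4 and NDUFC1 kept theirs in 8 of the 11, NDUFA12 in 4 and NDUFA3 in 2. The count of members called higher and lower went from 6 and 4 to 1 and 2 with the background fitted on all spots, to 1 and 1 in the deposited table, and to 0 and 0 with an offset of 0, with median scaling in place of loess, and with signals processed by the scanner software. For these alternatives the share of detected genes called was not counted, so a count of 0 does not set the members apart. Leaving out 1 array in turn gave 0 to 7 higher and 0 to 4 lower. The cause was not tested.

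Median scaling leaves the dependence of the ratio on brightness in place, and the members moved with genes as bright. The shares of detected genes past 0.5 were not counted under the settings of this paragraph, so its counts of members lack a background. Members past 0.5 became 5, 31 and 10 on the 3 arrays and 29 for the ratio with IGF1 against the others, and the median ratios of the members became -0.12, 0.59 and 0.21, where detected genes of brightness 12 to 14 had -0.19, 0.60 and 0.21. NDUFA12, NDUFAB1, NDUFAF2 and NDUFAF4 were then above 0 on the IGF1 array. The median responses became 0.34 in U87WT and -0.41 in U87Mut to IGF1 (7 and 12 members past 0.5), -0.14 and 0.20 on adding OSI906 (1 past 0.5 in U87WT), and 0.16 and -0.23 between FBS-free medium and both agents (1 past 0.5 in U87WT). Without normalization between arrays, the responses to IGF1 had medians of -0.28 in both clones (4 and 1 past 0.5), and those to both agents -0.27 and -0.28 (4 and 1), where genes of brightness 12 to 14 had -0.25 and -0.29, and -0.27 and -0.28.

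With IGF1, 8 members were past 0.5 with all spots in the fit and 13 in the deposited table, where 1 also differed by over 0.5 from the other arrays. In FBS-free medium 2 were past 0.5 under scale normalization and 2 when the probes of a gene were averaged. With IGF1 and OSI906 it was 1 under scale normalization. The shares of detected genes were not counted for these settings either. A limit of 0.5 SD of each array follows the rule of the study's methods. It was applied to the ratios as normalized here (0.113, 0.119 and 0.108), not to the authors' values. It was passed by 34, 26 and 31 members (73.9%, 56.5% and 67.4%) and by 62.4%, 63.1% and 65.6% of the detected genes. A limit of 1 was passed by none in FBS-free medium (0) or with both agents (0). The alternative with mean spot signals was not run because the scanner files used here give medians. No paired analysis was possible because each condition has 1 array, beyond the pairing of both clones on an array that each ratio holds. Ratios of the dimmest member, NDUFA4L2, are pulled toward 0 by the offset.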

Other observations

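The 5 non-coding members were not called. NDUFV1-DT, a divergent transcript at NDUFV1, gave ratios of 0.21, 0.07 and 0.15, and NDUFB2-AS1 gave 0.29, 0.12 and 0.15, both above 0 on every array (limma adjusted p = 0.140 and 0.0996). NDUFA6-DT and NDUFV2-AS1 had mean ratios of 0.04 and -0.05. NDUFAF4P1 was not well above background on any array, so its ratio says nothing of its level. COX7C of complex IV gave -0.73 with IGF1 against 0.20 and 0.14 on the other arrays, a single value from 1 array.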
